A study of Homo sapiens with 59 samples.

Results

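Leucine restriction was compared with its branched-chain control in Jurkat cells, a long-established line from a human T cell leukaemia that grows in suspension. The tested group held 5 libraries of cells kept with leucine at 25% and collected at day 3. The control group held 4 libraries, numbered 1, 3, 4 and 5, which carry a branched-chain control label at the same day and also serve the isoleucine and valine comparisons of the series. These 9 of the 59 libraries were chosen by their labels alone, and every gene whose normalised count averaged 10 or more over them was examined, 16488 of 27593 genes. The other libraries are cells restricted in 1 of 6 other essential amino acids, or controls of 4 of those. The labels give neither the medium of the controls nor the basis of the 25%, and they do not say whether each library had its own culture. The p-values therefore cover the spread among these libraries alone, which may be technical.

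Leucine is an essential branched-chain amino acid. Cells sense its supply mainly through Sestrin proteins and leucyl-tRNA synthetase, which act on the growth kinase complex mTORC1, and through the kinase GCN2, which responds to uncharged tRNA and raises translation of the transcription factor ATF4. The endoplasmic reticulum holds a separate system, the unfolded protein response, in which the chaperone BiP (HSPA5), the sensors IRE1, PERK and ATF6 and the factor XBP1 adjust the supply of folding proteins to the load of secretory and membrane proteins.

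The T cell identity of the line was visible in its mRNA. CD3E, a signalling chain of the T cell receptor complex, averaged 13939 ± 549 normalised counts in restricted and 15047 ± 2919 in control libraries (all values after ± are SD, n = 5 restricted and 4 control libraries). A T cell receptor signalling list, with 33 of 34 genes in the table, summed to 98677 to 107720 in restricted and 88452 to 125241 in control libraries. Summed counts were 15.5 to 16.6 M in restricted and 15.5 to 19.0 M in control libraries. The steps between low values put the reads behind them at 12.9 to 21.6 M in restricted and 13.4 to 32.8 M in control libraries. These are estimates, because within 0.1 no more than 78.7% of them were multiples of the step. In control 1 this share was lowest, at 49.1%, and the step was 0.58, against 1.07 to 1.16 in the other controls. Its estimate of 32.8 M is therefore the least certain.

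Control 1 stood apart from the other 8 libraries. Ribosomal protein mRNAs took 12.9% of its counts, against 5.99 to 7.56% in the restricted libraries and 7.30 to 7.67% in the other controls. Among the 92.2% of genes with a mean of at least 100 for which a coding-transcript length was known, split by length into 5 classes of equal size, its median deviation from the median library was 0.33 on the log2 scale in the class of the shortest transcripts and -0.33 in the class of the longest. List counts that moved by more than 1.5 times without control 1 are therefore also given without it. In the other 8 libraries the class medians lay between -0.053 (control 3, longest class) and 0.073 (restricted 5, longest class), with restricted 2 at 0.059 in the shortest class. The part of transcript length and of these libraries in the results was not tested beyond leaving libraries out.

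**Figure D1:**
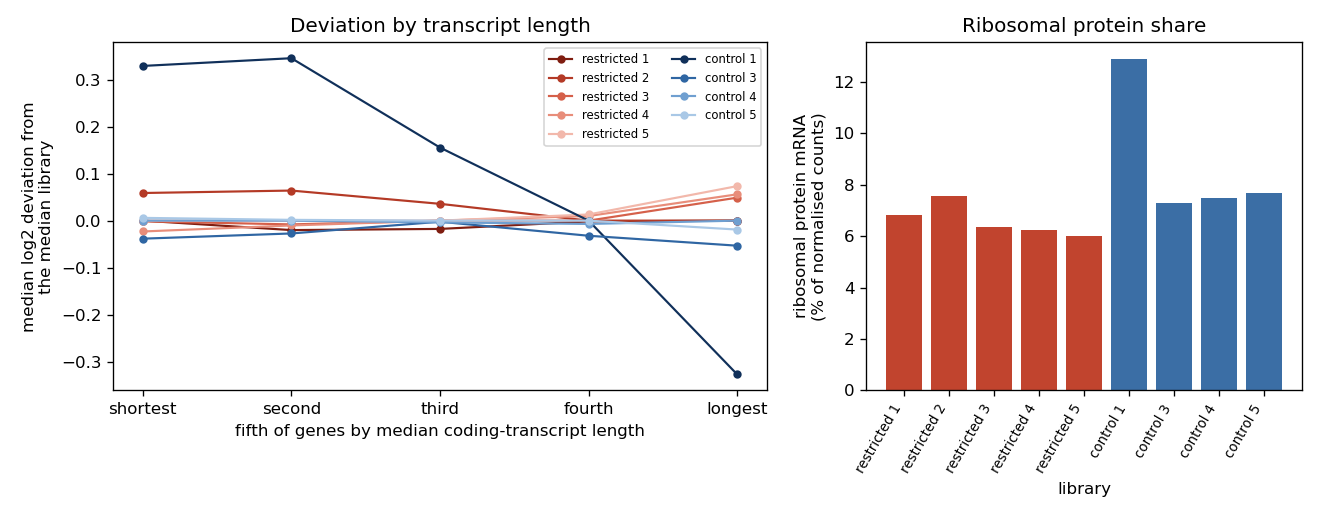
The left panel plots, for each of the 5 restricted and 4 control libraries, the median log2 deviation of genes from the median library in 5 equal classes of coding-transcript length, and the right panel the share of normalised counts in ribosomal protein mRNA as bars from 0. Control 1 runs from 0.33 in the shortest to -0.33 in the longest class and has a share of 12.9%, while the other 8 libraries lie between 5.99 and 7.67%.

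Leucine restriction changed 1277 of 16488 genes (7.75%) relative to the branched-chain controls, of which 563 (3.41%) rose and 714 (4.33%) fell at an adjusted p below 0.05 in limma. The shares of 3.41% and 4.33% are the background for every count of list members below. Of the 1277 called genes, 1166 had no overlap between the groups in any library. The call and the overlap rest on the same values, so this separation is no separate evidence. The share without overlap among all genes tested is not given here. At least 2-fold changes numbered 240, with 53 rises and 187 falls, so the larger changes were mostly falls. Without control 1 there were 1674 changed genes, 860 (5.20%) higher and 814 (4.92%) lower, and 1172 of the 1277 were among them. Without control 1 and restricted 2 there were 2402 of 16652 (14.4%), a fit added after the data had been seen, which included 1215 of the 1277. The count fell to 650 without restricted 1, 511 without restricted 3, 512 without restricted 4, 553 without restricted 5, 844 without control 3 and 678 without control 5. Fold changes are differences of log2(normalised count + 1), on which the change of a gene with few counts is understated, and in bulk libraries a change in the share of a kind of cell and a change of RNA per cell cannot be told apart.

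Chaperones and folding enzymes of the endoplasmic reticulum fell together under leucine restriction. Of 20 genes in a list of these, 19 fell, none rose, and the median log2 fold change was -1.98, against -0.0035 over all genes tested. A count of 19 was also found in each fit that left out a single library, and the median was -2.03 without control 1. HSPA5, the main chaperone of the compartment and a regulator of its stress sensors, had 3849.9, 4726, 4266, 4567 and 4074 normalised counts in the restricted libraries 1 to 5, against 52165, 48233, 50184 and 51619 in the control libraries 1, 3, 4 and 5. Every restricted library lay far below every control library. The fall was 11.8-fold (log2 fold change -3.56, SE 0.093, adjusted p = 1.76e-10), and it was as large without control 1 (-3.54).

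HSP90B1, the HSP90 chaperone of the endoplasmic reticulum, had 6680.2, 6556, 7088, 6856 and 6926 normalised counts in the restricted libraries 1 to 5, against 53366, 47629, 51865 and 52482 in the control libraries 1, 3, 4 and 5. The groups were far apart and each was tight (log2 fold change -2.91, SE 0.086, adjusted p = 5.64e-10). The disulfide isomerase PDIA4 had 2261, 2458, 2119, 2192 and 2355 normalised counts in restricted libraries, against 14799, 14702, 14060.4 and 15185 in controls (log2 fold change -2.69, SE 0.083, adjusted p = 7.57e-10), again with no overlap. HYOU1, a large chaperone that exchanges nucleotide on HSPA5, averaged 5815 ± 453 normalised counts in restricted and 27878 ± 740.1 in control libraries (SD; log2 fold change -2.26). The calcium-binding lectin chaperone CALR averaged 17604 ± 1326 normalised counts in restricted and 83458 ± 7975 in control libraries (log2 fold change -2.24), and restricted 2, at 19892, stood above the other restricted libraries.

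Secreted or resident factors of the same compartment fell as far. The neurotrophic factor MANF had 1449, 1555, 1195, 1242 and 1466 normalised counts in restricted libraries, against 15524, 9932, 10084 and 10644 in controls, and its values did not overlap (log2 fold change -3.04, SE 0.14, adjusted p = 6.64e-08). SDF2L1, a partner of the HSPA5 cycle, averaged 473 ± 99.2 normalised counts in restricted and 5211 ± 1772 in control libraries (log2 fold change -3.43). CRELD2, a folding factor with isomerase motifs, averaged 288 ± 49.5 normalised counts in restricted and 2166 ± 572 in control libraries (log2 fold change -2.89), and its relative CRELD1 changed by -2.23. In MANF, SDF2L1 and CRELD2 control 1 was above the other controls, and without it the log2 fold changes were -2.89, -3.21 and -2.72. The proline isomerase PPIB changed by -2.28, the disulfide isomerase PDIA6 by -2.02 and the co-chaperone DNAJC3, an inhibitor of the kinase PERK, by -1.93 on the same scale. DNAJC10, a reductase of misfolded proteins, was the member that did not pass, with 1634 ± 243 normalised counts in restricted and 1480.04 ± 328 in control libraries (log2 fold change 0.15, adjusted p = 0.562). It is named here because of that value.

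**Figure D2:**
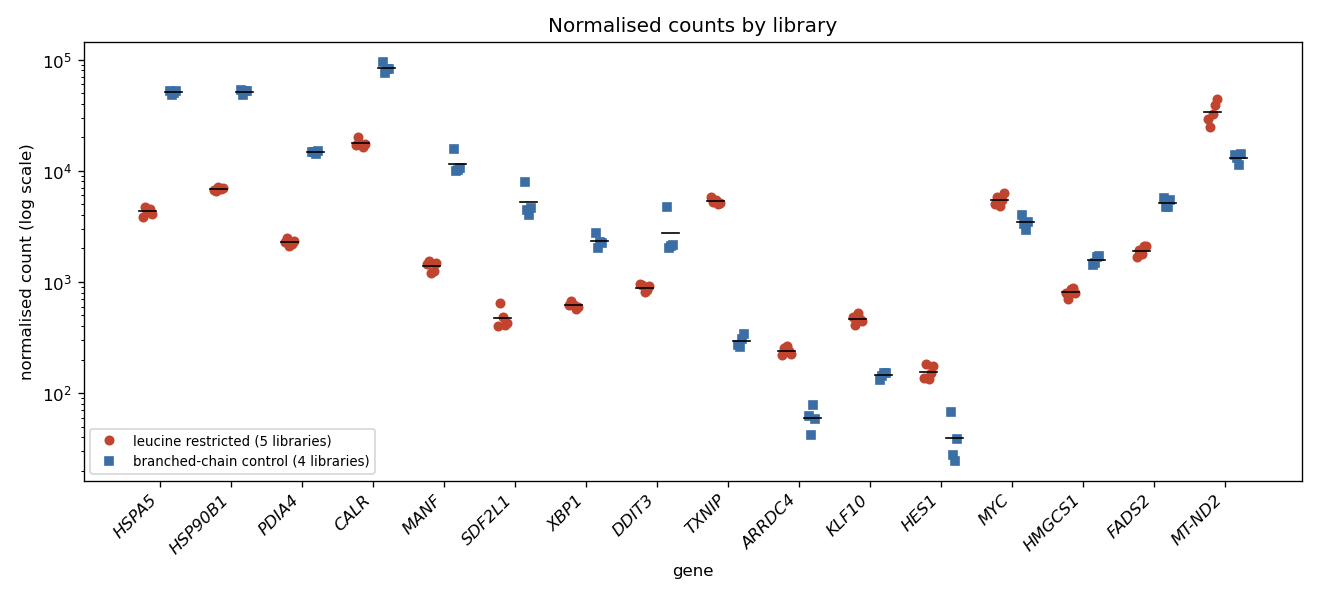
Normalised counts on a log scale are plotted for 16 genes, with restricted libraries as red circles left of control libraries as blue squares and black lines at the group means. HSPA5 lies between 3850 and 4726 in restricted and between 48233 and 52165 in control libraries, TXNIP lies the other way round, and DDIT3, MANF and SDF2L1 have 1 control library, control 1, above the other 3.

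Promoters of these genes are known to carry the endoplasmic reticulum stress element, in which CCAAT and CCACG are separated by 9 bases and which is bound by NF-Y together with ATF6 or XBP1. Windows around its matches are shown for the 6 named genes of the chaperone and stress-sensor lists whose promoter held one. They show a sequence that members of the group share. Matches in named genes outside these lists are not reported here. RefSeq promoters (GRCh38.p14, 250 bases before to 50 after the start) were searched on both strands, and the capitals mark the motif's 2 ends, read on the gene's strand, as CCAAT and CCACG or as their complements CGTGG and ATTGG.
HSPA5 (chr9:125241371-125241429, - strand): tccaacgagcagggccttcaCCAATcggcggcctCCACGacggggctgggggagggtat
HSP90B1 (chr12:103930196-103930359, + strand): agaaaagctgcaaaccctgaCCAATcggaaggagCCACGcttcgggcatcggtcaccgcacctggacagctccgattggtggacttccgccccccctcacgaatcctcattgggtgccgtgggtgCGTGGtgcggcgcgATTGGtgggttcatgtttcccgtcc
CALR (chr19:12938364-12938422, + strand): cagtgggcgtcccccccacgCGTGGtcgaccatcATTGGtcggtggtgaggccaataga
PDIA6 (chr2:10812833-10812891, - strand): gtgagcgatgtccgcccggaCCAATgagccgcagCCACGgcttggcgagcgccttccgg
CRELD2 (chr22:49918534-49918592, + strand): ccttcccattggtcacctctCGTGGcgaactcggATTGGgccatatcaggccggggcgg
XBP1 (chr22:28800583-28800641, - strand): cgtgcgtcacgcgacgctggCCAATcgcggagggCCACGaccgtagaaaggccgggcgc
A promoter with the motif was found for 7 of the 19 list genes searched (36.8%), for XBP1 alone of 18 genes of the stress-sensor list, and in 27 of 35116 promoters in all (0.0769%). The lists are counted by gene and the total by promoter, so these shares do not have the same unit. A match is a description of these letters and not a measured binding site, and a promoter without one may hold other forms of the element.

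Genes of the unfolded protein response and of the degradation machinery fell in the same libraries. Of 21 tested genes 13 fell and none rose, with a median of -0.68 (-0.55 without control 1, with 14 lower). The transcription factor XBP1 had 617, 674, 619.5, 566 and 596 normalised counts in restricted libraries, against 2737, 2035, 2278 and 2215 in controls, with no overlap between groups (log2 fold change -1.91, SE 0.11, adjusted p = 4.18e-07). SYVN1, the ubiquitin ligase of the degradation complex, averaged 714 ± 72.3 normalised counts in restricted and 2214 ± 283 in control libraries (log2 fold change -1.63). The membrane protein HERPUD1 changed by -1.07 and the factor CREB3L2 by -1.25 (adjusted p = 6.52e-05 and 3.29e-04).

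CDH15 and CDK2AP2, which are in no list, were also among the largest falls. CDH15, a cadherin known from muscle, had 3.24, 1.14, 2.91, 2.19 and 0 normalised counts in restricted libraries, against 203, 109, 71.5 and 114 in controls, so it was close to 0 in restricted libraries (log2 fold change -5.50, SE 0.51, adjusted p = 7.03e-05). CDK2AP2, a partner of the kinase CDK2, averaged 642 ± 90.6 normalised counts in restricted and 3202 ± 961 in control libraries (log2 fold change -2.28).

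Across the series the chaperones were low in some controls and high in others. HSPA5 was at 46463 to 54660 normalised counts in the 5 isoleucine restricted libraries and at 39965 to 44230.1 in the phenylalanine controls. In the 15 histidine, methionine and tryptophan controls it was at 6441 to 10272, and in the 25 libraries restricted in amino acids other than leucine and isoleucine at 3244 to 8369. HSP90B1 split in the same way, with 10254 to 14392 in those 15 controls and 45082 to 57185 in the phenylalanine controls. CDH15 was at 0 to 9.89 in the 15 controls and at 59.8 to 95.3 in the phenylalanine controls. These tables were normalised separately, so the levels are set side by side without a test.

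**Figure D3:**
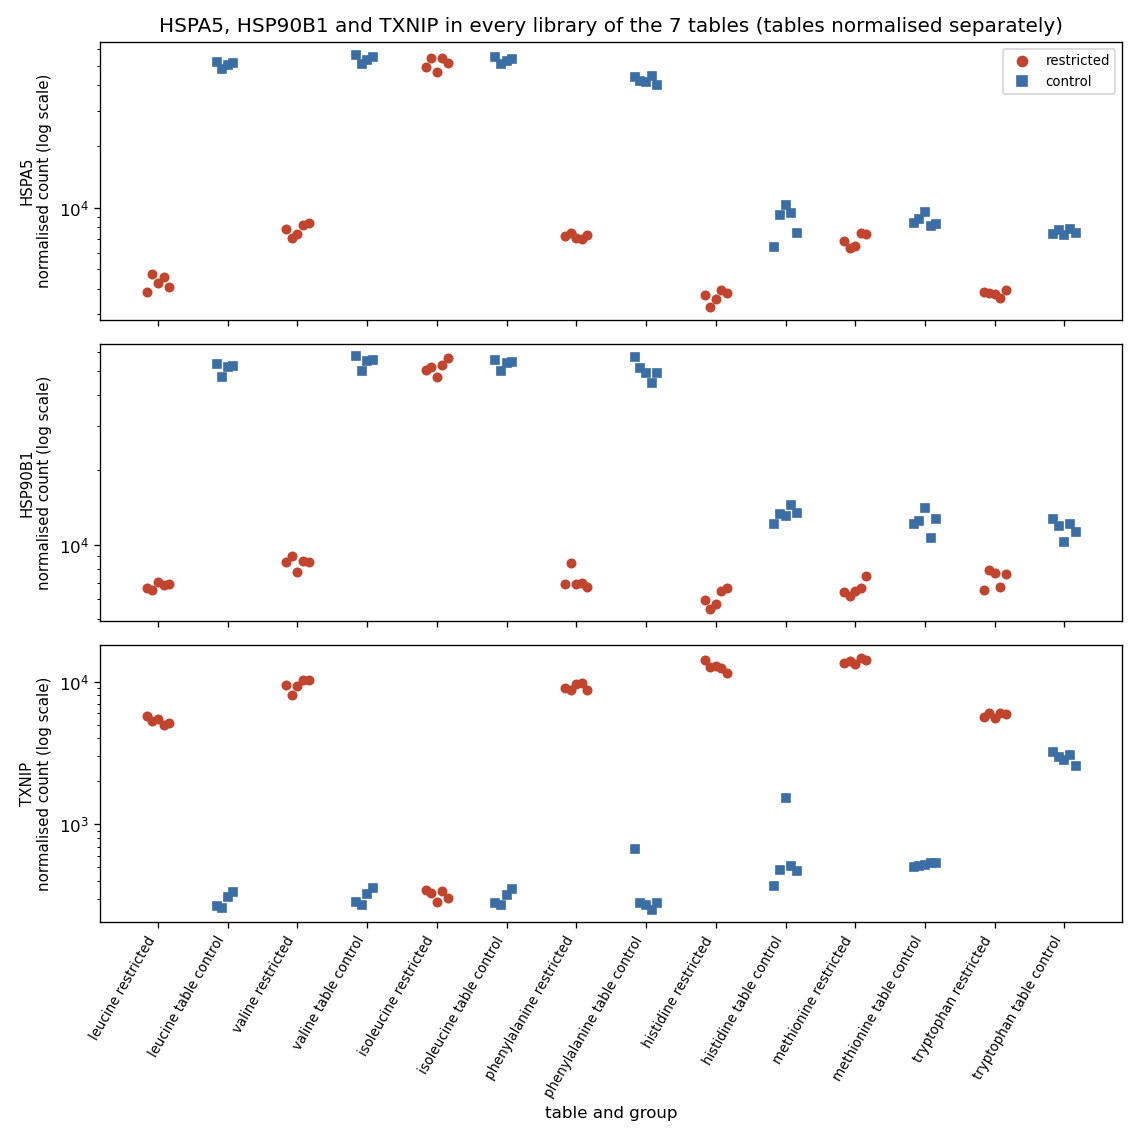
Each point is the normalised count of 1 library on a log scale, for HSPA5, HSP90B1 and TXNIP, with restricted libraries (red circles) left of the controls of the same table (blue squares); the branched-chain controls appear in 3 tables. HSPA5 is at 39965 or more in the branched-chain and phenylalanine controls and in isoleucine restricted cells, and at 10272 or less in the other groups.

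TXNIP, an arrestin-like protein that binds thioredoxin and limits the uptake of glucose, had the largest log2 rise among called genes. It had 5785, 5282, 5434, 4975 and 5116 normalised counts in the restricted libraries 1 to 5, against 268, 258, 309 and 338 in the control libraries 1, 3, 4 and 5. The restricted libraries were far above all controls, an 18.2-fold difference (log2 fold change 4.18, SE 0.10, adjusted p = 1.76e-10). TXNIP lies on chromosome 1 (145992435 to 145996579, GRCh38.p14). Its relative ARRDC4, which like TXNIP is transcribed by the glucose-sensing factor MondoA, had 222, 252, 267, 237 and 225 normalised counts in restricted libraries, against 61.7, 41.7, 77.8 and 58.7 in controls (log2 fold change 2.02, SE 0.19, adjusted p = 6.52e-05). These were the 2 genes called among 9 tested of a TXNIP and MondoA list, and 2 rose in each fit that left out a single library. TXNIP was also at 5554 to 14724 in the 25 libraries restricted in other amino acids except isoleucine, and at 286 to 350.1 in isoleucine restricted libraries, in separately normalised tables. It was at 369 to 3233 in the 15 histidine, methionine and tryptophan controls and at 253 to 671 in the phenylalanine controls. The tryptophan table held the narrowest gap of the tables other than isoleucine, with 5554 to 6044 in restricted and 2580 to 3233 in control libraries.

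Genes of cholesterol synthesis fell together. Of 21 tested members 16 fell, none rose, and the median log2 fold change was -0.67; without control 1 it was -0.56 with 15 lower, and 11 were lower without any 1 of restricted 1, 3, 4 or 5. HMGCS1, which makes the HMG-CoA of the pathway, had 796, 707, 872, 879 and 791 normalised counts in restricted libraries, against 1431, 1491, 1663 and 1713 in controls, with no overlap (log2 fold change -0.96, SE 0.10, adjusted p = 2.07e-04). Lanosterol synthase LSS averaged 1314 ± 153 normalised counts in restricted and 2729 ± 21.2 in control libraries (log2 fold change -1.06). HSD17B7 and DHCR7, enzymes of the later steps, changed by -1.18 and -0.82. The transcription factor that drives these genes, SREBF2, averaged 2376 ± 279 normalised counts in restricted and 4448 ± 188 in control libraries (log2 fold change -0.91, adjusted p = 3.29e-04). In the list of sterol sensing, uptake and export to which it belongs, 5 of 18 tested genes fell and 2 rose (1 without control 1 or restricted 2, 0 without any 1 of restricted 1, 3, 4 or 5 or control 3, 4 or 5). Its regulator INSIG1 changed by -0.83 and the sterol carrier STARD4 by -1.43.

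Of 19 tested genes of fatty acid synthesis and desaturation none rose and 4 fell (6 without control 4). The desaturase FADS2 had 1661, 1928, 1791, 2092 and 2095 normalised counts in restricted libraries, against 5716, 4691, 4679.9 and 5437 in controls, and the groups did not overlap (log2 fold change -1.42, SE 0.11, adjusted p = 7.75e-06). Stearoyl-CoA desaturase SCD changed by -0.71 and FADS1 by -0.45 on the log2 scale (adjusted p = 0.00398 and 0.0072). Aldolase C, ALDOC, was the only 1 of 28 glycolysis and pyruvate genes to be called, with 535 ± 91.2 normalised counts in restricted and 1221 ± 249 in control libraries (log2 fold change -1.19); 2 of the 28 fell without control 1 or control 4, and 1 rose without restricted 1.

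Of 30 tested targets of ATF4, the transcription factor of the amino acid response, 1 rose and 8 fell, with a median of -0.29 (-0.13 without control 1, with 1 higher and 9 lower; none rose without any 1 of restricted 2, 3, 4 or 5 or control 3, 4 or 5). Lists share members, so their counts are not separate results: HERPUD1 is also in the stress-sensor list and PYCR1 in the serine list. DDIT3 (CHOP), a transcription factor of prolonged stress, had 952, 929, 803, 844 and 909 normalised counts in restricted libraries, against 4700, 2026, 2098 and 2152 in controls; control 1 was above the other controls, and the groups did not overlap (log2 fold change -1.53, SE 0.21, adjusted p = 0.0014; -1.24 without control 1). The proline synthesis enzyme PYCR1 averaged 1362 ± 125 normalised counts in restricted and 3173 ± 717 in control libraries (log2 fold change -1.20). PPP1R15A, which brings a phosphatase to eIF2 and whose restricted 1 value of 1641 was below the other restricted libraries, changed by -0.70, and DDIT4, an inhibitor of mTORC1, by -0.69 (adjusted p = 0.00665 and 0.0163). The pseudokinase TRIB3 changed by -0.59 (adjusted p = 0.0332), a call that was lost without any 1 of restricted 1, 3, 4 or 5 or control 3 or 5, with an adjusted p of up to 0.0901. Restricted 2, at 13053, was above the other restricted libraries in TRIB3.

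ATF4 itself averaged 11480.4 ± 698 normalised counts in restricted and 14202 ± 3907 in control libraries (log2 fold change -0.27, adjusted p = 0.261) and was not called; control 1, at 20043, was above the other controls. Asparagine synthetase ASNS had 503, 615, 603, 522 and 599.9 normalised counts in restricted libraries, against 822, 631, 743 and 779.8 in controls (log2 fold change -0.39, adjusted p = 0.0605), so its groups did not overlap although the test was missed; without control 3 it was called (-0.46, adjusted p = 0.0461). ATF5 (0.056), the glutathione-degrading enzyme CHAC1 (0.0017), the leucine carrier SLC7A5 (0.11) and its partner SLC3A2 (-0.34), and the cystine carrier SLC7A11 (-0.62) were not called either, with adjusted p = 0.787, 0.996, 0.562, 0.169 and 0.0653. In SLC3A2 restricted 2, at 15524, was above the other restricted libraries. Without control 1 SLC7A11 fell by 0.83 (adjusted p = 0.00302). The kinase GCN2 (EIF2AK4) averaged 1805 ± 91.6 normalised counts in restricted and 1670.4 ± 95.5 in control libraries (adjusted p = 0.454).

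Among 40 tested genes of leucine sensing and mTORC1, 2 rose and 1 fell, and the median was -0.013. These counts were near the shares over all genes tested, 3.41% higher and 4.33% lower. None rose or fell without any 1 of restricted 1, 3, 4 or 5 or control 5, while 4 rose without control 1 and 4 fell without control 4. Sestrin 1 (SESN1) had 229.9, 202, 204, 246 and 222 normalised counts in restricted libraries, against 165, 159, 116 and 144 in controls (log2 fold change 0.60, adjusted p = 0.0315). The lysosomal amino acid carrier SLC38A9 changed by -0.42 and the GATOR2 subunit SEH1L by 0.39. Each call was lost when some library was left out. The adjusted p reached 0.0848 for SESN1 (lost without any 1 of restricted 1, 3, 4 or 5 or control 4 or 5), 0.0874 for SLC38A9 (lost without any 1 of restricted 1, 2, 3, 4 or 5 or control 3, 4 or 5) and 0.0984 for SEH1L (lost without any 1 of restricted 1, 3, 4 or 5 or control 3 or 5). Sestrin 2 (SESN2), the leucine-binding sensor, averaged 1534 ± 159 normalised counts in restricted and 1925 ± 162 in control libraries (log2 fold change -0.33, adjusted p = 0.0732), and control 4, at 1683, was below the other controls. SESN2 was called lower without control 4 (-0.39, adjusted p = 0.0444) and without restricted 2 (-0.38, adjusted p = 0.0482). Leucyl-tRNA synthetase LARS1 averaged 2451 ± 265 normalised counts in restricted and 1967 ± 393 in control libraries (log2 fold change 0.33, adjusted p = 0.147), and without control 1 it was called (0.45, adjusted p = 0.0245). The arginine sensor CASTOR1 (-0.28), the GATOR1 subunit DEPDC5 (0.38), the Rag GTPase RRAGD (0.22) and folliculin FLCN (-0.41) were not called, with adjusted p from 0.0836 to 0.426; without control 4 FLCN was called (-0.54, adjusted p = 0.0252).

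Of 26 tested genes for the breakdown of branched-chain amino acids 3 fell and none rose, where 4.33% of all genes fell, and the median was -0.12. BCKDHA, a subunit of the branched-chain dehydrogenase, averaged 1342 ± 139 normalised counts in restricted and 1962 ± 357 in control libraries (log2 fold change -0.54). Its partner subunit BCKDHB averaged 453 ± 34.1 normalised counts in restricted and 655 ± 93.4 in control libraries (log2 fold change -0.52), and ALDH6A1, which acts on valine, changed by -0.59. None fell without restricted 3. Control 1, at 2493, was above the other controls in BCKDHA, and restricted 2, at 899, above the other restricted libraries in BCKDK. BCKDHA lost its call without any 1 of restricted 1, 3, 4 or 5 (adjusted p up to 0.0708), BCKDHB without any 1 of restricted 3 or 4 or control 5 (up to 0.0665) and ALDH6A1 without any 1 of restricted 1, 2, 3 or 5 or control 1, 3 or 4 (up to 0.11). The transaminases BCAT1 (0.22) and BCAT2 (-0.13) and the inhibitory kinase BCKDK (-0.38) were not called (adjusted p = 0.474, 0.568 and 0.168). Without restricted 2 BCKDK was called lower (-0.52, adjusted p = 0.0286).

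Of 20 tested amino acid transporters of the plasma membrane none rose and 4 fell (3 without any 1 of restricted 3, 4 or 5 or control 3). SLC43A1, a carrier of branched-chain amino acids, had 599, 619, 606, 623 and 501 normalised counts in restricted libraries, against 1469, 1036, 870.5 and 1052 in controls, with restricted 5 below the other restricted libraries and no overlap (log2 fold change -0.89, SE 0.14, adjusted p = 0.00371). SLC7A8, a carrier of large neutral amino acids, averaged 204 ± 15.4 normalised counts in restricted and 366 ± 25.8 in control libraries (log2 fold change -0.84), and the glycine carrier SLC6A9 changed by -0.73. SLC43A2, the relative of SLC43A1, changed by -0.72 (adjusted p = 0.0204, up to 0.0597 without any 1 of restricted 3, 4 or 5 or control 3).

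Of 37 aminoacyl-tRNA synthetases 2 rose and 5 fell (6 and 4 without control 1; 1 rose without any 1 of restricted 1, 2 or 5 or control 3 or 4, and 3 fell without any 1 of restricted 3, 4 or 5). Over all genes tested 3.41% rose and 4.33% fell. The tryptophan enzyme WARS1 averaged 2005 ± 106 normalised counts in restricted and 3617 ± 292 in control libraries (log2 fold change -0.85, adjusted p = 1.78e-04). The alanine enzyme AARS1 changed by -0.66 and the glutamine enzyme QARS1 by -0.77. In serine, one-carbon and asparagine synthesis 2 of 21 rose (1 without any 1 of restricted 1, 3, 4 or 5 or control 3, 4 or 5) and 3 fell. The mitochondrial serine enzyme SHMT2 changed by -0.66 (adjusted p = 0.00534). In the methionine cycle the transsulfuration enzyme CBS averaged 1486 ± 111 normalised counts in restricted and 2587 ± 351 in control libraries (log2 fold change -0.79).

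mRNAs encoded in mitochondrial DNA rose in part. Of 13 tested 6 rose and none fell, with a median of 0.69 (10 higher without restricted 2; 0.88 without control 1, with 9 higher). MT-ND2, a subunit of complex I, had 28908, 24622, 32435, 39053 and 44582 normalised counts in restricted libraries, against 13823, 13107, 11209 and 14041 in controls, with no overlap (log2 fold change 1.35, SE 0.16, adjusted p = 5.05e-04). MT-ND1 changed by 1.20, the complex IV subunit MT-CO3 by 1.16 and cytochrome b, MT-CYB, by 1.12. MT-ND4L (1.37) shares a transcript with MT-ND4 and is uncertain. The complex IV subunits MT-CO1 and MT-CO2 were at -0.15 and 0.16 with adjusted p = 0.642 and 0.636, so not all members passed the test. Together the 13 made up 2.04 to 3.80% of counts in restricted and 1.73 to 2.10% in control libraries. Of 42 nuclear genes of oxidative phosphorylation limma called none, with 4 at an unadjusted p below 0.05 (median -0.14), and without control 1 it called 1 higher and 2 lower.

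Ribosomal protein genes fell in part, and how far they did so moved with control 1. Of 47 genes of the large subunit 13 fell and of 32 of the small subunit 2 fell, with medians of -0.51 and -0.43. Without control 1 the counts were 16 and 5 and the medians -0.25 and -0.16; without any 1 of restricted 3, 4 or 5 or control 5, 2 and 0 fell. RPL7A averaged 12175 ± 1380.3 normalised counts in restricted and 22616 ± 7424 in control libraries (log2 fold change -0.85, and -0.64 without control 1). RPL31 changed by -1.03 (-0.70 without control 1; the call was lost without any 1 of restricted 3, 4 or 5, with an adjusted p of up to 0.0593). Ribosomal protein genes have many near-identical pseudogenes among which pseudoalignment can divide reads, so single members are uncertain. Control 1 was above the other controls in RPL7A (33652) and RPL31 (14359). Of 20 translation factors whose mRNAs are regulated like those of ribosomal proteins, 2 rose and 5 fell (none rose without any 1 of restricted 3, 4 or 5 or control 3, and 3 fell without restricted 1 or 3). The initiation subunits EIF3E and EIF3H changed by -0.78 and -0.81.

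Some factors that build ribosomes rose. Of 32 ribosome biogenesis genes none fell and 8 rose (13 without control 1, 4 without restricted 3 or 4), with a median of 0.23. The nucleolar phosphoprotein NOLC1 had 6503, 7642, 6197, 6344 and 6768 normalised counts in restricted libraries, against 3650.1, 3336, 4189.7 and 4068 in controls, with no overlap (log2 fold change 0.81, SE 0.10, adjusted p = 7.26e-04). UTP20, of the small-subunit processome, changed by 0.67 and the helicase DDX21 by 0.54. Of 22 host genes of small nucleolar RNAs 5 rose and none fell (7 and 1 without control 1, 2 higher without restricted 4 or control 3). ZFAS1 averaged 1306 ± 200.4 normalised counts in restricted and 651 ± 155 in control libraries (log2 fold change 1.02), SNHG12 changed by 1.39 and SNHG32 by 0.67 (0.87 without control 1, which at 7893 was above the other controls; lost without any 1 of restricted 1, 3, 4 or 5 or control 3 or 5, adjusted p up to 0.0698). ZFAS1 and SNHG12 run antisense to other genes and are uncertain, since the sources used here do not give the strand setting.

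MYC, the growth transcription factor that drives ribosome biogenesis, rose. It had 5027, 5801, 4766, 5408 and 6239 normalised counts in restricted libraries, against 4035, 3302, 2920.2 and 3452 in controls, with no overlap (log2 fold change 0.67, SE 0.11, adjusted p = 0.00526). Of 17 genes in a MYC, MAX and MXD list that includes targets 1 fell and 5 rose (3 without any 1 of restricted 1, 3 or 5 or control 5). The polyamine enzyme ODC1 and the transferrin receptor TFRC, both MYC targets, changed by 0.62 and 0.56, and restricted 2, at 7155, was above the other restricted libraries in ODC1. The antagonist MXD4 averaged 937 ± 152 normalised counts in restricted and 1705 ± 279 in control libraries (log2 fold change -0.86, adjusted p = 0.00366).

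Of 39 DNA replication genes 7 rose and none fell (12 higher without control 1, 4 higher without restricted 4, 1 lower without control 4). The helicase subunits MCM4 and MCM2 changed by 0.61 and 0.52, the GINS subunit GINS1 by 0.90 and the methylation maintenance factor UHRF1 by 0.49. Thymidine kinase TK1, of the nucleotide synthesis list, averaged 342 ± 25.3 normalised counts in restricted and 651 ± 131 in control libraries (log2 fold change -0.91, adjusted p = 0.00216), with control 1 at 846 and above the other controls. Of 26 genes of nucleotide synthesis 2 rose (4 without control 1, none without any 1 of restricted 1 to 5 or control 3 or 5) and 2 fell (1 without any 1 of restricted 1, 3, 4 or 5 or control 5). Of 36 genes of G2 and mitosis 3 rose (6 without control 1), and none did without restricted 3 or 4. Over all genes tested 3.41% rose and 4.33% fell. The shares that rose in this list and in nucleotide synthesis were above 3.41%, but they rest on few genes. The proliferation marker MKI67 averaged 8796 ± 706 normalised counts in restricted and 7588 ± 1809 in control libraries (log2 fold change 0.25, adjusted p = 0.35). The D-type cyclin CCND2 had 794, 726, 952, 874 and 908 normalised counts in restricted libraries, against 199, 382, 647 and 463 in controls (log2 fold change 1.12, adjusted p = 0.0228), and its call was lost without any 1 of restricted 3, 4 or 5 or control 3, with an adjusted p of up to 0.0623.

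Transcription factors were among the largest rises. HES1, a Notch target that is active in T cell leukaemia, had 136, 184, 134, 151 and 176 normalised counts in restricted libraries, against 67.6, 27.9, 24.5 and 38.5 in controls, with no overlap (log2 fold change 2.05, SE 0.27, adjusted p = 0.00114). KLF10, a zinc-finger factor induced by TGF-beta, had 479.6, 408, 527, 459 and 448 normalised counts in restricted libraries, against 132, 141, 151 and 151 in controls (log2 fold change 1.68, SE 0.12, adjusted p = 6.91e-06). Of 23 T-lineage leukaemia transcription factors none fell and 3 rose (5 without control 1, 2 without any 1 of restricted 1, 3, 4 or 5 or control 3 or 5). Of 12 KLF factors 1 rose (2 without control 1 or 4) and 1 fell. Among all genes tested 3.41% rose and 4.33% fell. ZBTB16, a zinc-finger factor of innate-like T cells, changed by 1.61, the inhibitor of differentiation ID1 by 1.03 and LEF1, a factor of T cell development, by 0.53. KLF15 averaged 236 ± 48.3 normalised counts in restricted and 473 ± 71.4 in control libraries (log2 fold change -1.01). The immediate-early factors FOS and EGR1 were the genes that fell among 19 tested of their list, with log2 fold changes of -1.77 and -0.70. FOS averaged 18.4 ± 7.13 normalised counts in restricted and 63.4 ± 16.9 in control libraries, and EGR1 averaged 559 ± 73.7 normalised counts in restricted and 908 ± 111 in control libraries. The long non-coding RNA MALAT1 averaged 1259 ± 619 normalised counts in restricted and 368 ± 147 in control libraries (log2 fold change 1.72), with restricted values from 659 to 2263, and overlaps an antisense transcript, so it is uncertain; the ring-finger gene LONRF2 changed by 1.02.

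Of 26 cytosolic chaperones of the heat-shock response 5 rose and 1 fell (7 and 0 without control 1; 2 higher without any 1 of restricted 3, 4 or 5 or control 5). The HSP40 co-chaperone DNAJA1 had 4758, 4904, 4964, 4882 and 4682 normalised counts in restricted libraries, against 3348, 2252, 3007 and 2656 in controls, with no overlap (log2 fold change 0.80, SE 0.11, adjusted p = 0.00149). CHORDC1, an HSP90 co-chaperone, changed by 0.75. HSPA1A, an inducible HSP70 that shares reads with a near-identical copy and is uncertain, had 26.1, 95.2, 143, 345 and 259 normalised counts in restricted libraries, against 609, 471, 666 and 420.4 in controls (log2 fold change -2.07, adjusted p = 0.0439), and its call was lost without any 1 of restricted 2, 3 or 5 or control 1, 3, 4 or 5 (up to 0.0898). HSPA6, another inducible HSP70, ranged from 265 to 2309 in restricted and from 1339 to 1788 in control libraries and was not called (adjusted p = 0.432).

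In the oxidant response list none of 27 rose and 5 fell (3 without any 1 of restricted 1, 3, 4 or 5 or control 5). OSGIN1, a target of the factor NRF2, averaged 47.5 ± 6.84 normalised counts in restricted and 163 ± 38.7 in control libraries (log2 fold change -1.73), and transketolase TKT changed by -0.998 (-0.79 without control 1, which at 14724 was above the other controls). Of 18 genes of lymphocyte migration and adhesion 2 rose, the G protein regulator RGS16 by 0.86 and the integrin subunit ITGA4 by 0.54; none fell, and 1 did without control 1.

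**Figure D4:**
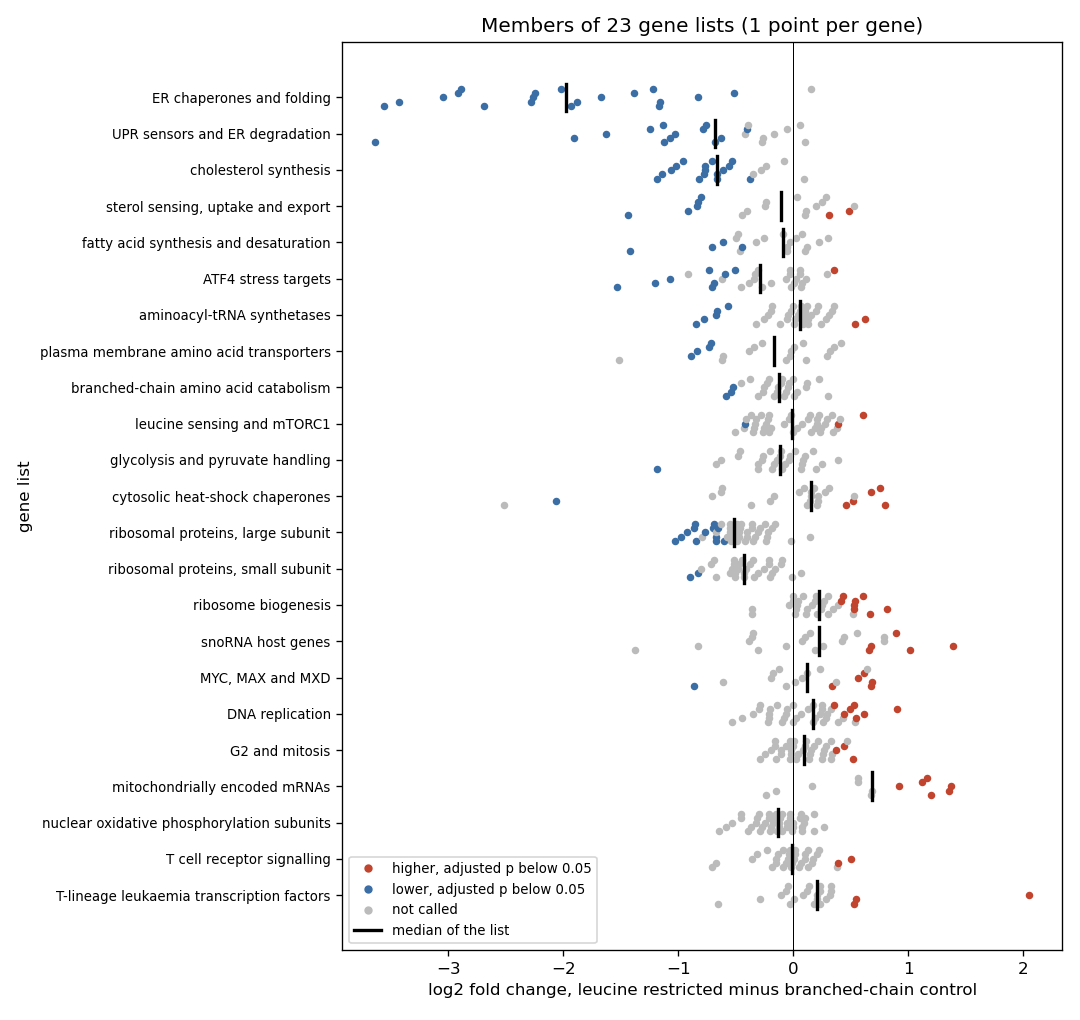
Each point is 1 gene of 23 lists at its log2 fold change of leucine restricted over branched-chain control, red where higher and blue where lower at an adjusted p below 0.05 and grey otherwise, with a black bar at the list's median. The median lies at -1.98 for chaperones of the endoplasmic reticulum, -0.67 for cholesterol synthesis and 0.69 for mitochondrially encoded mRNAs, and most other medians are near 0.

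Markers of other cell types were at different levels. Of 10 myeloid markers 3 were in the table, and LYZ, CSF1R, MPO and ITGAM were not among them. CD68, a lysosomal glycoprotein, was the only one tested, with 8.72, 16.8, 16.6, 4.41 and 5.03 normalised counts in restricted libraries, against 109, 61.8, 26.8 and 45.0 in controls (log2 fold change -2.45, adjusted p = 0.0141); the summed level of the list was 4.41 to 28.2 in restricted and 51.2 to 117 in control libraries. Summed B cell markers were 401 to 484 and 418 to 785, natural killer and CD8 cell markers 148 to 295 and 182 to 222, and epithelial and stromal markers 1141 to 1256 and 1337 to 1931, in restricted and control libraries. The highest of these were PECAM1 of the epithelial and stromal list, an adhesion molecule that the lymphocyte migration list also holds, and CD79A, a B cell receptor chain. PECAM1 averaged 746 ± 18.3 normalised counts in restricted and 824 ± 44.2 in control libraries, and CD79A averaged 298 ± 25.4 in restricted and 365 ± 89.1 in control libraries. Limma called none of the 3, 5 and 6 genes tested in these lists, with 1, 1 and 3 at an unadjusted p below 0.05; 1 B cell marker fell without control 4 and 1 epithelial or stromal marker without control 1. The part of such cells in the results was not tested.

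Valine restriction, another branched-chain restriction of the series, changed 2096 of 16771 genes (12.5%) relative to the same controls. The 2 responses were compared on the restricted libraries, each set against the control mean of its own table. The responses to leucine and to valine differed at 3661 of 16637 genes (22.0%), 1816 higher and 1845 lower under leucine. That test takes no account of the controls' own error, so the 22.0% cannot be set against the 12.5%. With every library scaled to an equal total, 35.5% of 3877 called genes were higher, against 49.6% of the 3661. Both comparisons use the same control libraries, so their fold changes are given side by side and not as independent results. Lactate dehydrogenase LDHA, the last enzyme of anaerobic glycolysis, averaged 11479 ± 1092 in leucine restricted and 3887 ± 291 in valine restricted libraries, and the difference of the responses was 1.64, SE 0.088, adjusted p = 1.64e-07 (log2 scale). Its log2 fold change from the controls was -0.14 under leucine and -1.78 under valine restriction. BNIP3, a mitophagy receptor induced by hypoxia, averaged 2513 ± 222 in leucine restricted and 665 ± 68.1 in valine restricted libraries (difference 1.98, SE 0.10, adjusted p = 1.64e-07). The lymphoid DNA polymerase DNTT, with -0.07 under leucine and -1.51 under valine, PDLIM1 (0.15 and -2.12), DAAM2 (-0.20 and -1.93) and NRN1 (-0.54 and -1.76) were also higher under leucine than under valine restriction, by 1.437, 2.27, 1.73 and 1.23.

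Other genes were lower under leucine restriction. The adaptor KCTD11 averaged 168 ± 21.1 in leucine restricted and 540.2 ± 62.6 in valine restricted libraries (difference -1.59, SE 0.13, adjusted p = 9.32e-06). The tropomyosin gene TPM3 was at -0.27 under leucine and 0.93 under valine, the elongation factor subunit NELFCD at 0.11 and 1.19, the mitochondrial deoxyguanosine kinase DGUOK at -0.64 and 0.65, the factor TOX2 at 0.42 and 1.61 and the granin CHGB at -0.79 and 1.96. These 5 were lower under leucine, by -1.21, -1.07, -1.28, -1.19 and -2.75. HSPA5 fell further under leucine (-3.56) than under valine restriction (-2.79; difference -0.77, SE 0.083, adjusted p = 6.90e-05), while for MANF the difference was not called (-0.10, SE 0.10, adjusted p = 0.515). TXNIP rose less under leucine (4.18 against 4.93; difference -0.74, SE 0.087, adjusted p = 1.12e-04), and so did ARRDC4 (2.02 against 3.17; difference -1.15, SE 0.11, adjusted p = 3.55e-05). HSPA6 was at -0.63 under leucine and -6.46 under valine (difference 5.84, SE 0.53, adjusted p = 2.52e-05). TRIB3 was -0.59 under leucine and 0.40 under valine, and the difference was -0.99, SE 0.11, adjusted p = 9.18e-05. SREBF2 was at -0.91 under leucine and -1.53 under valine restriction (difference 0.61, SE 0.10, adjusted p = 9.40e-04), and NOLC1 at 0.81 and -0.066 (difference 0.88, SE 0.085, adjusted p = 3.39e-05).

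In isoleucine restriction limma called none of 16623 genes (0.00%) relative to the same controls, where 872 had an unadjusted p below 0.05 and the lowest adjusted p was 0.0582. The responses to leucine and isoleucine differed at 2864 of 16559 genes (17.3%), 1383 higher and 1481 lower under leucine. This test too takes no account of the controls' own error, so the 17.3% cannot be set against the 0.00%. HSPA5 averaged 4297 ± 356 in leucine restricted and 51262 ± 3534 in isoleucine restricted libraries (difference -3.51, SE 0.068, adjusted p = 1.79e-13), and TXNIP 5319 ± 313 in leucine restricted and 323 ± 26.3 in isoleucine restricted libraries (difference 4.11, SE 0.07, adjusted p = 8.22e-14). HSP90B1, PDIA4, HYOU1, MANF and CALR differed by -2.87, -2.69, -2.24, -2.87 and -2.21, each lower under leucine. KLF10 averaged 464 ± 43.8 in leucine restricted and 182 ± 23.5 in isoleucine restricted libraries (difference 1.43, SE 0.11, adjusted p = 1.06e-06). The co-chaperone DNAJA1, the growth factor HBEGF, the splicing factor SRSF11 and SNHG32 were higher under leucine by 0.81, 0.82, 0.80 and 0.91. The isoleucine libraries alone were at 0.25 for KLF10, -0.012 for DNAJA1, -0.054 for HBEGF, -0.08 for SRSF11 and -0.23 for SNHG32 on the log2 scale.

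**Figure D5:**
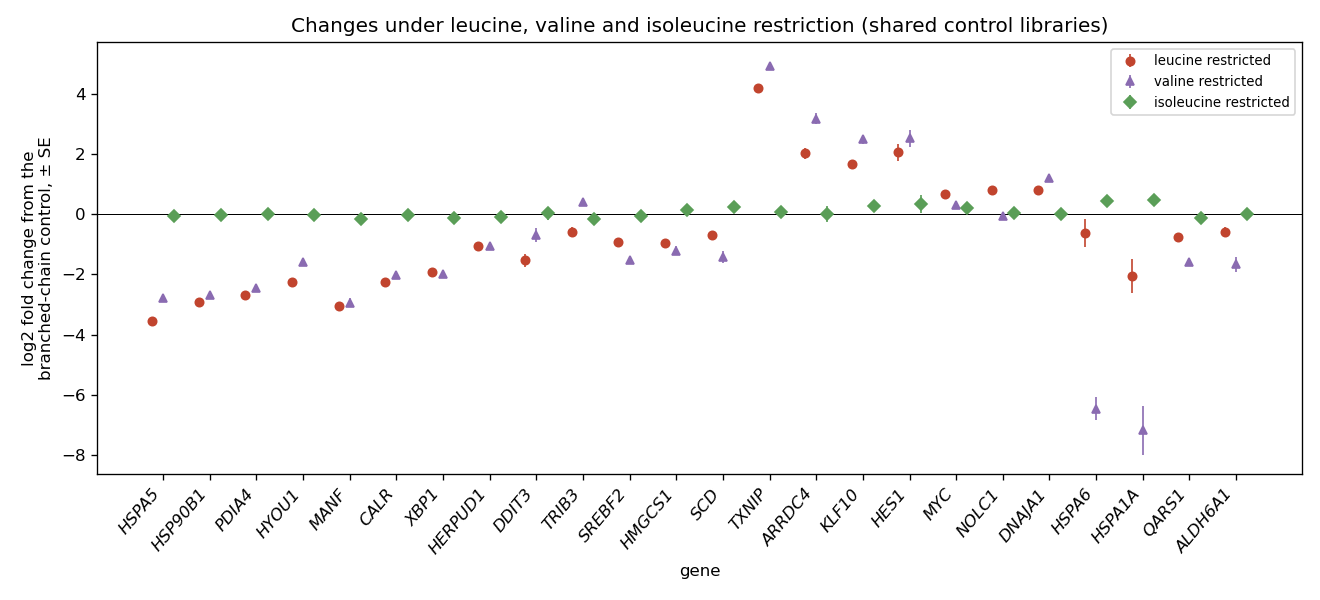
The log2 fold change from the shared branched-chain controls, with its standard error, is plotted for 24 genes under leucine (red circles), valine (purple triangles) and isoleucine restriction (green diamonds). HSPA5 lies at -3.56, -2.79 and -0.052 and TXNIP at 4.18, 4.93 and 0.078, and HSPA6 and HSPA1A are far lower under valine than under leucine restriction.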

How the data were processed

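Strand-specific libraries were made from total RNA of Jurkat cells purified on columns, per the labels' protocols. The authors deposited normalised counts, a non-negative signal per gene, in 7 tables made separately; per the submitters' processing notes the build was GRCh38 and the tools named are kallisto 0.50.1, DESeq2 1.44.0 and FastQC 0.11.9, with no roles given. The sources used here give neither the annotation release nor the strand setting. Because low values did not come out as whole reads, no count model was used. Values were taken as log2(normalised count + 1), genes with a mean of at least 10 were kept, and limma 3.58.1 in R 4.3.3 (two-sided, intensity trend, Benjamini-Hochberg) called an adjusted p below 0.05. Leucine was compared with valine and isoleucine restriction on values minus the control mean of each table, so that these tests take no account of the controls' own error; the same controls were 0.076 to 0.109 (log2) lower in the leucine than in the valine table and 0.057 to 0.071 lower than in the isoleucine table. The genes named are, for genes called without overlap and with a higher-group mean of at least 100, the top 15 by log2 fold change in each direction, the first 4 of each of 50 lists by adjusted p, a fixed set, and the 6 smallest p in each direction of each difference; not all are printed, and a few are not reported here. DNAJC10 was named after its value was seen. The members and lists were chosen with earlier results of these data known. Alternatives changed the pseudocount to 0.25 or 5, the filter, the scaling, the library weights, a replicate block and each library in turn. Promoters and gene positions come from RefSeq tables of GRCh38.p14.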

Additional observations from a re-analysis of the deposited data

Results flagged for a closer look

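Of 292 groups of 4 or 5 libraries, 26 held a library whose gap to its nearest neighbour exceeded Dixon's critical share of the group's range. For independent normal values chance gives about 1 in 20. The groups share the same libraries and are not independent, so that rate is no yardstick for the 26. In 15 of the 26 groups the library was control 1 and in 10 it was a restricted library. Control 1 was the high library for SDF2L1 (7846 normalised counts), MANF (15524), CRELD2 (3022), DDIT3 (4700), ATF4 (20043), BCKDHA (2493), RPL7A (33652), RPL31 (14359), SNHG32 (7893), TK1 (846) and TKT (14724). It was also high in the share of ribosomal protein mRNA (12.9%), in estimated reads (32.8 M) and in 5.8S rRNA (871), and low in the median deviation of the longest class of transcripts (-0.33). The estimate of its reads is uncertain, since only 49.1% of its low values were multiples of the step. Control 4 was low for SESN2 (1683).

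Restricted 2 was the high library for CALR (19892), TRIB3 (13053), SLC3A2 (15524), BCKDK (899), ODC1 (7155) and EGLN3 (55.4). Restricted 1 was low for PPP1R15A (1641) and high for 5.8S rRNA (1173), restricted 5 was low for SLC43A1 (501), and restricted 3 was high in estimated reads (21.6 M).

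The 12 genes named for the difference between leucine and valine restriction were chosen by the smallest p in limma's test of it. Their calls, and those of the genes named against isoleucine restriction, are therefore no separate evidence. The log2 difference was 1.437 for DNTT, 1.98 for BNIP3, 2.27 for PDLIM1, 1.73 for DAAM2, 1.64 for LDHA and 1.23 for NRN1, which were higher under leucine. It was -1.59 for KCTD11, -1.21 for TPM3, -1.07 for NELFCD, -1.28 for DGUOK, -1.19 for TOX2 and -2.75 for CHGB. Against isoleucine restriction the difference was 4.11 for TXNIP, 0.81 for DNAJA1, 0.82 for HBEGF, 0.91 for SNHG32, 1.43 for KLF10 and 0.80 for SRSF11, and -3.51 for HSPA5, -2.87 for HSP90B1, -2.69 for PDIA4, -2.24 for HYOU1, -2.87 for MANF and -2.21 for CALR.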

How the results depend on the processing

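The count of 1277 genes stayed within 1.5 times under another pseudocount, filter or scaling (998 to 1406). It was 834 with the replicate block, which leaves restricted 2 out, 2699 with library weights and 2402 without control 1 and restricted 2 together, and it ran from 511 (without restricted 3) to 1674 (without control 1) when a library was left out. At least 2-fold changes were 240, and 133 among genes with a mean of at least 100. Same-numbered restricted and control libraries deviated together little or not at all (correlations of -0.090, 0.00037, -0.036 and 0.043). Such weak values cannot show whether the numbers mark sets of libraries. The labels do not say, and the main fit used no pairing. With the block there were 4447 genes for leucine against valine and 2491 against isoleucine. Left-out libraries moved those counts over 2625 to 4298 and 2277 to 3492.

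Of 110 called genes among the 141 named, 92 kept their call under all alternatives; of the 31 not called, 11 gained a call under some alternative. The direction of 6 genes, none of them called, turned under some alternative. With a library left out, the log2 fold change lay between -0.013 and 0.12 for ATF5, -0.084 and 0.10 for CHAC1, -0.0046 and 0.36 for BCAT1, -0.18 and 0.029 for CD3E, -0.12 and 0.13 for BNIP3, and -0.25 and 0.022 for LDHA. The replicate block gave -0.018 for CHAC1. BNIP3 was at 0.0011 with trimmed-mean (TMM) factors, 0.035 with equal totals and 0.049 with library weights. Without control 1 and restricted 2 CD3E was at 0.019, BNIP3 at 0.12 and LDHA at 0.065. The cause of these changes was not tested. At 12.9 to 32.8 M estimated reads, the depth behind the deposited values is known only as an estimate, which limits what can be said of genes with low values.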

Other observations

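Other gene lists also held called genes; over all genes tested 3.41% rose and 4.33% fell. Of 21 tested genes in a list of the citric acid cycle and related enzymes 2 fell and none rose (1 rose without control 1). Both were related enzymes and not steps of the cycle itself. The cytosolic isocitrate dehydrogenase IDH1 averaged 573 ± 23.1 normalised counts in restricted and 994 ± 94.9 in control libraries (log2 fold change -0.79). Pyruvate carboxylase PC changed by -0.65. Of 34 genes of autophagy and lysosome none rose and 3 fell (1 without any 1 of restricted 3 or 4 or control 5, and 5 without control 4). WIPI1, which binds lipids at forming autophagosomes, averaged 112 ± 21.2 normalised counts in restricted and 364 ± 42.2 in control libraries (log2 fold change -1.71). In polyamine synthesis and the methionine cycle 3 of 21 rose (5 without control 4) and 1 fell (2 without any 1 of restricted 2 or control 1 or 4). MAT2A, which makes S-adenosylmethionine, averaged 5448 ± 728 normalised counts in restricted and 3236 ± 423 in control libraries (log2 fold change 0.75), and METTL16, the methyltransferase that controls MAT2A splicing, changed by 0.60.

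Of 16 MAP kinase phosphatases and Sprouty genes 3 rose (0 without restricted 4 or 5) and 1 fell, the phosphatase DUSP16 (-0.69). Of 20 p53 targets 1 rose (0 without any 1 of restricted 1, 3, 4 or 5 or control 5) and 4 fell (1 without restricted 3 or 5), among them the DNA damage sensor DDB2 (-0.84). In the BCL2 family 1 of 15 rose (0 without any 1 of restricted 1, 3, 4 or 5 or control 3; 2 without control 1 or 4) and 2 fell (1 without any 1 of restricted 1, 3, 4 or 5 or control 3), among them the death promoter BMF (-0.77). Of 16 genes of antigen presentation 1 rose and none fell (2 and 1 without control 1), and the peptidase ERAP2 rose by 0.67. Of 29 actin genes 2 fell (1 without restricted 1 or 3, and 4 without control 4), calponin CNN2 by -0.58 among them. Of 14 replication-dependent histone genes 3 fell (1 without any 1 of restricted 3, 4 or 5), with H2BC21 at -1.14. Of 20 hypoxia genes 1 rose (none without any 1 of restricted 3, 4 or 5 or control 3 or 5) and 4 fell (1 without any 1 of restricted 1, 3 or 5 or control 5), with the oxygen sensor EGLN3 at -1.08. In limma none of 23 interferon-stimulated genes and none of 8 chaperonin genes was called, with 3 of each at an unadjusted p below 0.05; without control 1 there were 2 and 4 called.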
